A study of Homo sapiens with 6 samples.

Results

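Deubiquitinases are proteases that remove ubiquitin from proteins or trim ubiquitin chains. The genes described here carry the names of 3 of their families: the ubiquitin-specific proteases (USP), the OTU-domain enzymes (OTUB and OTUD) and the ubiquitin C-terminal hydrolases (UCHL). They were chosen by name alone, as every gene row whose symbol is USP with a number (an X may follow), OTUD with a number and an optional A or B, OTUB1, OTUB2 or UCHL1 to UCHL5. This gave 64 genes of 27451 gene rows, 51 USP, 10 OTU and 3 UCHL. Of these, 52 had a mean of at least 1 TPM (a transcript abundance scaled for transcript length) across the 6 libraries and were tested, among 12294 such genes.

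The cells were MDA-MB-231, a widely used human cell line from a breast tumour without estrogen or progesterone receptors. One group of 3 libraries came from cells given the vehicle DMSO, and the other group of 3 from cells given 2 µM of H182, both for 2 h. The series title speaks of azetidine-based inhibitors of the transcription factor STAT3. The design has a single line, dose and time. Nothing in the labels says that the replicates were separate cultures, so the p-values reflect only differences among these libraries, possibly technical ones. Of the markers of the line, VIM, CD44, AXL and EGFR summed to 5729 to 5851 TPM in the DMSO libraries and 4869 to 5184 TPM in the H182 libraries. The receptor genes ESR1 and PGR stayed at or below 0.06 TPM in every library, and TFF1 at or below 0.67 TPM, while the luminal markers EPCAM and GATA3 had means of 14.2 and 8.51 TPM. GATA3 was lower in H182, at 6.47 to 7.27 TPM against 9.61 to 11.3 TPM in DMSO, and the part of these marker differences in the results below was not tested. The leukocyte marker PTPRC was at 0.06 to 1.07 TPM and CD3E at no more than 0.07 TPM, and endothelial markers (PECAM1 and CDH5) summed to 0.06 to 0.42 TPM. Fibroblast markers (COL1A1 and PDGFRB) summed to 7.56 to 9.6 TPM in DMSO and 8.05 to 8.72 TPM in H182.

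Ubiquitin is joined to lysines of target proteins by a cascade of ligases, and chains of ubiquitin send many targets to the proteasome. Deubiquitinases reverse this step: some rescue proteins from degradation, some recycle ubiquitin at the proteasome, and others edit signals on histones, receptors or DNA repair proteins. Most are expressed in all cell types, and a few, such as USP26 and USP29, are known mainly from testis.

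After 2 h with H182, OTUD1 was the only tested gene of these families that changed by at least 2-fold. OTUD1, an OTU enzyme that acts on ubiquitin chains in innate immune and TGF-beta signalling, rose 4.75-fold. USP36, a nucleolar deubiquitinase that also stabilises MYC, rose 1.19-fold. OTUB2, USP22, OTUD4, USP46, USP40, USP13, USP1, USP16, USP39, USP11 and USP5 fell, none by more than 1.43-fold, and 39 genes did not pass the test. Passing means an adjusted p under 0.05 in limma (a linear model on log2(TPM + 1), Benjamini-Hochberg adjustment over all 12294 tested genes). Of all tested genes 24.0% passed, 5.30% higher and 18.7% lower. The 13 of 52 family members that passed (2 higher and 11 lower) are therefore a share near that of all genes. Of all tested genes 1.51% passed and rose at least 2-fold by the ratio of mean TPM, and 0.480% passed and fell as much. In TPM the libraries of the 2 groups did not overlap for 25 of the 52 members, with H182 above in 4 and below in 21. Over all tested genes this was so for 41.4%, above in 8.67% and below in 32.7%.

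The falls have to be read against a shift of the whole table. TPM of each library add up to a fixed total. Over all tested genes the median log2 change was -0.09 in TPM and 0.00 after median-of-ratios scaling. The median over the 52 tested members was -0.16 in TPM and -0.06 with that scaling, and 41 of them were below 0 in TPM against 33 with that scaling. With median-of-ratios scaling, 3 members were higher (OTUD1, USP36 and USP15) and 5 lower (OTUB2, USP22, OTUD4, USP46 and USP1), against 7.88% and 6.78% of all tested genes (14.7% in either direction). Quantile normalization called the same 8 genes. The falls of USP5, USP11, USP13, USP16, USP39 and USP40 passed in TPM only. In bulk RNA, fewer cells that express a gene and less of its RNA per cell cannot be told apart.

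**Figure D1:**
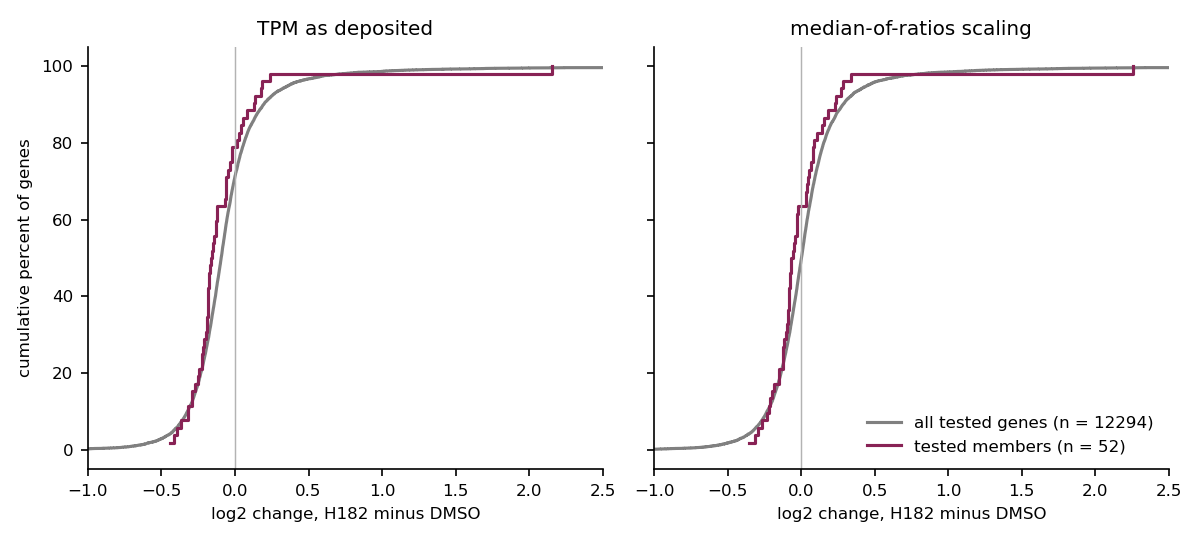
Cumulative percent of genes (vertical axis) against the log2 change, H182 minus DMSO (horizontal axis), for the 52 tested members and all 12294 tested genes, in TPM and after median-of-ratios scaling. In TPM the median of the members is -0.16 and that of all tested genes -0.09, and OTUD1 is the only member to the right of 0.24, at 2.16.

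The sequence upstream of RefSeq start sites of OTUD1 and USP36, which rose, and of USP22, the most abundant member and one that fell, is shown so that their promoters can be compared. The bases are those of RefSeq on GRCh38.p14, upstream of 1 RefSeq start site of each gene and written along its strand. Stretches that GENCODE 29 annotates as exons were left out. Capitals mark the core of a cyclic AMP response element (CRE), TGACGT, and an antioxidant response element, TGACNNNGC, on either strand. OTUD1 is shown for chr10:23438825-23439074 (plus strand, 250 bases), USP36 for chr17:78840888-78841010 (minus strand, 123 bases) and USP22 for chr17:21043040-21043261 (minus strand, 222 bases).
OTUD1: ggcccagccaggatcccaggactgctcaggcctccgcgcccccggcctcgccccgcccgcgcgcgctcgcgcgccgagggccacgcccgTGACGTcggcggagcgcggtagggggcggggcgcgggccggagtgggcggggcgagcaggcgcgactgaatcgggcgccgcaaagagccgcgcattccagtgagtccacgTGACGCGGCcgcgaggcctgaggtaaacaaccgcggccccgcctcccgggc
USP36: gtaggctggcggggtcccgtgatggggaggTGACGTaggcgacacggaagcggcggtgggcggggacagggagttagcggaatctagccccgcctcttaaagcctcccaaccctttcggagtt
USP22: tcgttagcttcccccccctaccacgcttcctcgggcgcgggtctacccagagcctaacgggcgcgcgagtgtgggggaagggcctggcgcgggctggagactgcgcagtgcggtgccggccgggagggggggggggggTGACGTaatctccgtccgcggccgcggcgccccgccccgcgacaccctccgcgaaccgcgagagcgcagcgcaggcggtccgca
The OTUD1 stretch holds a CRE core that begins 161 bases before the RefSeq start site and an antioxidant response element match that begins 51 bases before it. A CRE core begins 166 bases before the RefSeq start site shown for USP36 and 112 bases before that of USP22. These RefSeq start sites lie 627 and 749 bases downstream of the GENCODE 29 starts of USP36 and USP22, so both stretches lie within the GENCODE genes. USP36 has another RefSeq start site, 2 bases from its GENCODE start, whose upstream stretch of 248 bases holds neither motif. OTUB2, which fell, also has CRE cores in its window, 49 and 11 bases before its RefSeq start site. This core was chosen after these sequences had been seen.

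Across the families, 50 of the 64 genes matched a RefSeq promoter, with 70 windows of 300 bases (250 before to 50 after a start site). Both strands were searched, and windows of the same gene can overlap. The CRE core TGACGT was in 8 of the 70 windows (11.4%; OTUB2, OTUD1, UCHL5, USP2, USP8, USP22, USP36 and USP54) and in 7.98% of all 35116 promoter windows. The antioxidant response element TGACNNNGC, which can share its first letters with the CRE core, was in 9 of the 70 windows (12.9%), against 13.3% of all windows. The heat shock element of 3 units was in none of the 70 windows and in 0.490% of all. Its shorter form GAANNTTC, which the longer motif contains, was found in a window of USP39 alone, against 6.77% of all windows. The full CRE TGACGTCA, which contains the core, was in none of the 70 and in 1.85% of all. The AP-1 motif TGANTCA was found in 2 overlapping windows of UCHL5 only (7.71% of all windows), and the C/EBP-ATF element TGATGNAA in windows of OTUD3, OTUD4 and USP50 (3.62% of all). The TATA motif TATAAA was found in windows of OTUD4, UCHL1, USP16, USP40 and USP46 (11.5% of all). A match is a description of letters in the window and not a site of binding.

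OTUD1 (ENSG00000165312.6, chr10:23439458-23442390, GRCh38, plus strand, 1 exon in GENCODE 29) was at 11.8, 12.5 and 12.6 TPM in the DMSO libraries and at 58.2, 57.8 and 59.3 TPM in the H182 libraries. The groups lay far apart, and within each group the libraries differed by less than 2 TPM. The mean went from 12.3 ± 0.452 to 58.4 ± 0.792 TPM (SD, n = 3 each), a log2 change of 2.16 (SE 0.061, limma adjusted p = 7.24e-09). The change stayed between 2.13 and 2.26 over all 16 alternative settings and passed in each. Counted from the largest rise in log2 change, OTUD1 ranked 52 among the 12294 tested genes. Within the families the next largest rise was that of USP36, at 0.24.

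The rise moved OTUD1 from place 39 to place 11 in the order of mean TPM of the 64 genes. Its share of the summed TPM of the 10 OTU genes was 5.48, 5.46 and 5.63% in the DMSO libraries and 23.9, 23.3 and 23.3% in the H182 libraries. The sum over the OTU genes was therefore higher in H182 (248 ± 5.28 TPM) than in DMSO (223 ± 7.06 TPM), while without OTUD1 it was lower, at 190.02 ± 4.71 against 210.5 ± 6.65 TPM. The summed USP genes went from 1602 ± 24.5 to 1437 ± 32.8 TPM, and the UCHL genes from 232 ± 5.31 to 210.1 ± 6.59 TPM. These sums carry the shift of the whole TPM table described above.

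**Figure D2:**
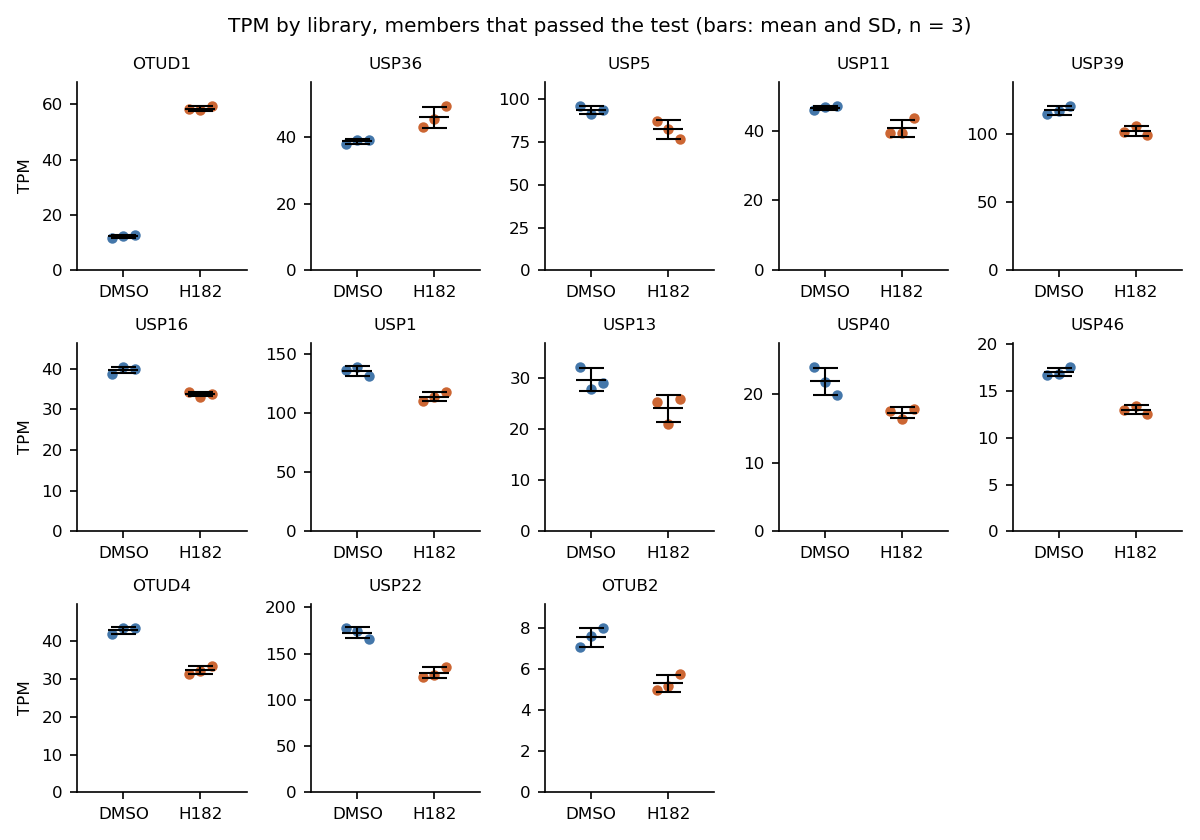
TPM by library (vertical axis, from 0) in the 3 DMSO and 3 H182 libraries for the 13 members that passed the test, with mean and SD as bars. The H182 libraries of OTUD1 sit at 57.8 to 59.3 TPM and its DMSO libraries at 11.8 to 12.6 TPM, and in the other 12 genes the groups lie closer together without overlapping.

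Among the other 7 tested OTU genes none rose and 2 fell, where 5.30% and 18.7% of all tested genes did. OTUD4, a scaffold for deubiquitination in innate immune signalling and DNA alkylation repair (ENSG00000164164.15, chr4:145110838-145180161, minus strand, 21 exons), was at 41.8, 43.4 and 43.3 TPM in DMSO and 31.2, 32.2 and 33.5 TPM in H182. It fell by 0.40 on the log2 scale (SE 0.056, limma adjusted p = 0.00103), to 0.754 of its DMSO mean, and by 0.30 with median-of-ratios scaling. OTUD4 shares 276 exon bases with ABCE1 on the opposite strand. ABCE1, a ribosome recycling factor, fell from 228 ± 10.9 to 170.2 ± 5.0 TPM. Whether reads were counted by strand is not given in the sources used here, and the part of ABCE1 reads in the OTUD4 value was not tested.

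OTUB2, a small deubiquitinase of DNA damage and Hippo signalling (ENSG00000089723.9, chr14:94026329-94048930, plus strand, 6 exons), was at 7.06, 7.61 and 7.99 TPM in DMSO and 4.97, 5.16 and 5.77 TPM in H182. It had the largest fall of the families, by 0.44 on the log2 scale (SE 0.105, limma adjusted p = 0.0149). Leaving out H182 replicate 1, or either DMSO replicate 2 or 3, ended its call (adjusted p up to 0.0545). OTUB2 shares 640 exon bases with DDX24 on the opposite strand, which went from 177 ± 6.44 to 152 ± 1.14 TPM. The part of DDX24 reads in OTUB2 was not tested either. OTUB1, an abundant enzyme that also blocks the ubiquitin-conjugating enzyme UBE2N, was at 84.1 ± 3.22 and 80.7 ± 2.55 TPM and did not pass (log2 change -0.06).

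The other tested OTU genes did not pass. OTUD7B, a regulator of NF-kappaB signalling, changed by 0.18 and OTUD5, which acts in interferon signalling, by -0.07 on the log2 scale. OTUD3 changed by -0.27 with all H182 libraries below all DMSO libraries, and OTUD6B, which is tied to translation, by -0.17.

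Genes that act on histones, in transcription or in the nucleolus held 4 of the 13 passing genes (1 higher and 3 lower of 10 tested, where 5.30% and 18.7% of all tested genes passed). With median-of-ratios scaling 1 of the 10 was higher and 1 lower, against 7.88% and 6.78% of all tested genes. USP22, the deubiquitinase of the SAGA coactivator complex that acts on histone H2B (ENSG00000124422.11, chr17:20999593-21043760, minus strand, 13 exons), was at 178, 175 and 166 TPM in DMSO and at 125, 127 and 136 TPM in H182. All H182 libraries lay below all DMSO libraries. It fell by 0.42 on the log2 scale (SE 0.047, limma adjusted p = 0.000276) and by 0.31 with median-of-ratios scaling, and it passed in all 16 alternatives. Its paralogs were at low levels, USP27X at 1.01 ± 0.115 and 0.930 ± 0.167 TPM and USP51 at 0.0467 ± 0.0115 and 0.0600 ± 0.0520 TPM, and were not tested.

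USP36 (ENSG00000055483.19, chr17:78787381-78841441, minus strand, 21 exons) was at 37.7, 39.1 and 39.0 TPM in DMSO and at 43.0, 45.4 and 49.2 TPM in H182. It rose by 0.24 on the log2 scale (SE 0.062, limma adjusted p = 0.0215) and by 0.34 with median-of-ratios scaling (adjusted p = 0.00295). Without DMSO replicate 1 or 2, or H182 replicate 2 or 3, its adjusted p rose to as much as 0.0632 in TPM and the call was lost.

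USP16, which removes ubiquitin from histone H2A, was at 38.7, 40.4 and 39.8 TPM in DMSO and 34.2, 33.1 and 33.9 TPM in H182 (log2 change -0.23, limma adjusted p = 0.0147). USP11, a partner of BRCA2 in DNA repair that also acts in transcription, was at 45.8, 46.7 and 47.0 TPM in DMSO and 39.2, 39.2 and 43.5 TPM in H182 (log2 change -0.19, limma adjusted p = 0.0427). Both calls were in TPM only, since the changes became -0.13 and -0.09 with median-of-ratios scaling. That of USP16 was also lost without DMSO replicate 2 or H182 replicate 2, and that of USP11 without any library but H182 replicate 3. USP7, a deubiquitinase of the ligase MDM2, came close to the threshold without passing: it was at 79.3, 72.3 and 70.0 TPM in DMSO and 64.1, 64.1 and 67.6 TPM in H182 (log2 change -0.17, limma adjusted p = 0.0545). USP3, USP21, USP42, USP44 and USP49 did not pass, at -0.29 to -0.06.

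Of 10 tested genes of the cell cycle and DNA damage response, 2 fell (20%), OTUB2 and USP1, and none rose. That share is near the 18.7% of all tested genes that were lower, and 5.30% of all were higher. USP1, which acts on FANCD2 and PCNA in DNA repair (ENSG00000162607.12, chr1:62436297-62451804, plus strand, 9 exons), was at 137, 139 and 131 TPM in DMSO and 110.2, 114 and 118 TPM in H182. It fell by 0.25 on the log2 scale (SE 0.045, limma adjusted p = 0.00351) and by 0.15 with median-of-ratios scaling, and passed in all 16 alternatives. USP10, USP24, USP28, USP37, USP45, USP47 and USP48 did not pass. USP28 and USP37, which stabilise MYC and cyclin A, changed by -0.19 and -0.21. USP10, a partner of the stress granule protein G3BP1, changed by -0.18, and USP47, which acts in base excision repair, by 0.04. USP24, USP45, a repair enzyme of the ERCC1-XPF pathway, and USP48 changed by -0.05, -0.24 and -0.22.

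In the group that works at the proteasome or on free ubiquitin, all 5 tested genes had H182 values below every DMSO value, as had 32.7% of all tested genes. Of the 5, 2 passed as lower, as did 18.7% of all tested genes, and none of the 5 passed after median-of-ratios scaling. USP5, which takes apart unanchored ubiquitin chains, was at 95.9, 91.2 and 93.9 TPM in DMSO and 87.5, 82.8 and 76.7 TPM in H182 (log2 change -0.19, limma adjusted p = 0.0379). Its relative USP13, which acts in endoplasmic reticulum associated degradation and on MCL1, was at 32.2, 27.95 and 29.1 TPM in DMSO and 25.3, 21.1 and 26.0 TPM in H182 (log2 change -0.29, limma adjusted p = 0.0428). Neither passed with median-of-ratios scaling, with adjusted p of 0.438 and 0.198 (limma). The call of USP5 was also lost without any library but H182 replicate 1, and that of USP13 without any but H182 replicate 3.

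The proteasome-bound enzymes did not pass. USP14 was at 141, 152 and 140 TPM in DMSO and 131, 127 and 137 TPM in H182, a log2 change of -0.13 with a 95% interval from -0.24 to -0.02. UCHL5, which binds the proteasome through ADRM1, changed by -0.12 (interval -0.22 to -0.02). UCHL3, which processes ubiquitin precursors, was at 135, 131 and 126 TPM in DMSO and 125, 112.7 and 115 TPM in H182, and changed by -0.15 (interval -0.27 to -0.04, limma adjusted p = 0.0589). With median-of-ratios scaling these 3 changes were -0.03, -0.02 and -0.05. UCHL1, an abundant enzyme of neurons, did not exceed 0.13 TPM in any library.

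Of 9 tested genes of the endosome, plasma membrane and secretory pathway, only USP46 passed, where 24.0% of all tested genes did. USP46, which works with the WD40 protein WDR48 (ENSG00000109189.12, chr4:52590972-52659335, minus strand, 9 exons), was at 16.7, 16.8 and 17.5 TPM in DMSO and 12.97, 13.4 and 12.5 TPM in H182. It fell by 0.37 on the log2 scale (SE 0.074, limma adjusted p = 0.00721), by 0.27 with median-of-ratios scaling, and passed in all 16 alternatives. USP8, the endosomal deubiquitinase of receptor tyrosine kinases, was at 24.7 ± 0.999 and 25.9 ± 3.75 TPM and did not pass (log2 change 0.06). USP19 and USP25, which act in endoplasmic reticulum associated degradation, changed by -0.18 and 0.14 without passing, as did USP9X (-0.16), USP20 (-0.22), USP33 (-0.06) and USP12 (-0.02). USP32 changed by -0.13. Its close relative USP6 was at 0.397 ± 0.133 and 0.367 ± 0.0586 TPM, and how reads were divided between these copies was not tested.

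At mitochondria, USP30, the outer membrane enzyme that opposes mitophagy, varied too much within DMSO for a small change to be seen. It was at 14.9, 13.5 and 7.19 TPM in DMSO and 12.1, 9.41 and 8.81 TPM in H182, with DMSO replicate 3 the lowest of all 6. Its log2 change was -0.17 with a 95% interval from -0.67 to 0.34. USP35, another mitochondrial regulator, was at 4.19 ± 0.880 and 4.27 ± 0.741 TPM.

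Among 11 tested signalling and immunity genes, OTUD1 rose and OTUD4 fell, and the other 9 did not pass in TPM. By comparison, 5.30% of all tested genes were higher and 18.7% lower. USP15, a regulator of TGF-beta signalling and of mitophagy, was at 38.8, 40.0 and 42.4 TPM in DMSO and 43.0, 42.8 and 47.2 TPM in H182, with no overlap. It changed by 0.13 in TPM (limma adjusted p = 0.159) and by 0.23 with median-of-ratios scaling, which passed (adjusted p = 0.0249). USP34, an axin deubiquitinase of Wnt signalling, changed by -0.02 in TPM. It shares 3263 exon bases with AHSA2P on the opposite strand, a relative of the HSP90 cochaperone AHSA1, which rose from 12.3 ± 1.5 to 19.2 ± 0.145 TPM, and the part of those reads in USP34 was not tested. USP4, USP31, USP38 and USP43 changed by 0.08, -0.18, -0.03 and 0.01 without passing. USP18, the protease of the ubiquitin-like protein ISG15, was at 0.810 ± 0.170 and 0.70 ± 0.165 TPM. Its near copy USP41 was at 1.67 TPM in H182 replicate 1 and at no more than 0.14 TPM elsewhere, and how reads were divided between these copies was not tested.

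Of the members long classed as catalytically inactive, USP39, a splicing factor of the tri-snRNP, was at 114, 117 and 120.1 TPM in DMSO and 101, 106 and 98.8 TPM in H182 (log2 change -0.20, limma adjusted p = 0.0121). The call was lost with median-of-ratios scaling (log2 change -0.09). USP39 also shares 203 exon bases with C2orf68 on the opposite strand, which fell from 26.3 ± 0.596 to 21.2 ± 1.34 TPM, with no test of its part. USP53 changed by 0.18 and USP54 by -0.32, neither passing. In USP54, DMSO replicate 1 stood at 13.9 TPM, above all other libraries at 6.54 to 8.70 TPM. Of the less studied genes, USP40 was at 23.8, 21.6 and 19.8 TPM in DMSO and 17.5, 16.3 and 17.8 TPM in H182 and fell by 0.32 on the log2 scale (limma adjusted p = 0.0230). Its call was absent after median-of-ratios scaling, and also without DMSO replicate 1 or 2 or H182 replicate 1 or 2.

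For the 39 genes that did not pass, the 95% intervals ran from -0.76 at the lowest (USP54) to 0.45 at the highest (USP53). All 39 intervals lay within -1 and 1, so a 2-fold change of any of them on the log2(TPM + 1) scale lay outside its interval, and 34 lay within -0.5 and 0.5. For 8 genes the sign differed between TPM and median-of-ratios scaling (OTUB1, OTUD5, USP12, USP24, USP33, USP34, USP38 and USP42).

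**Figure D3:**
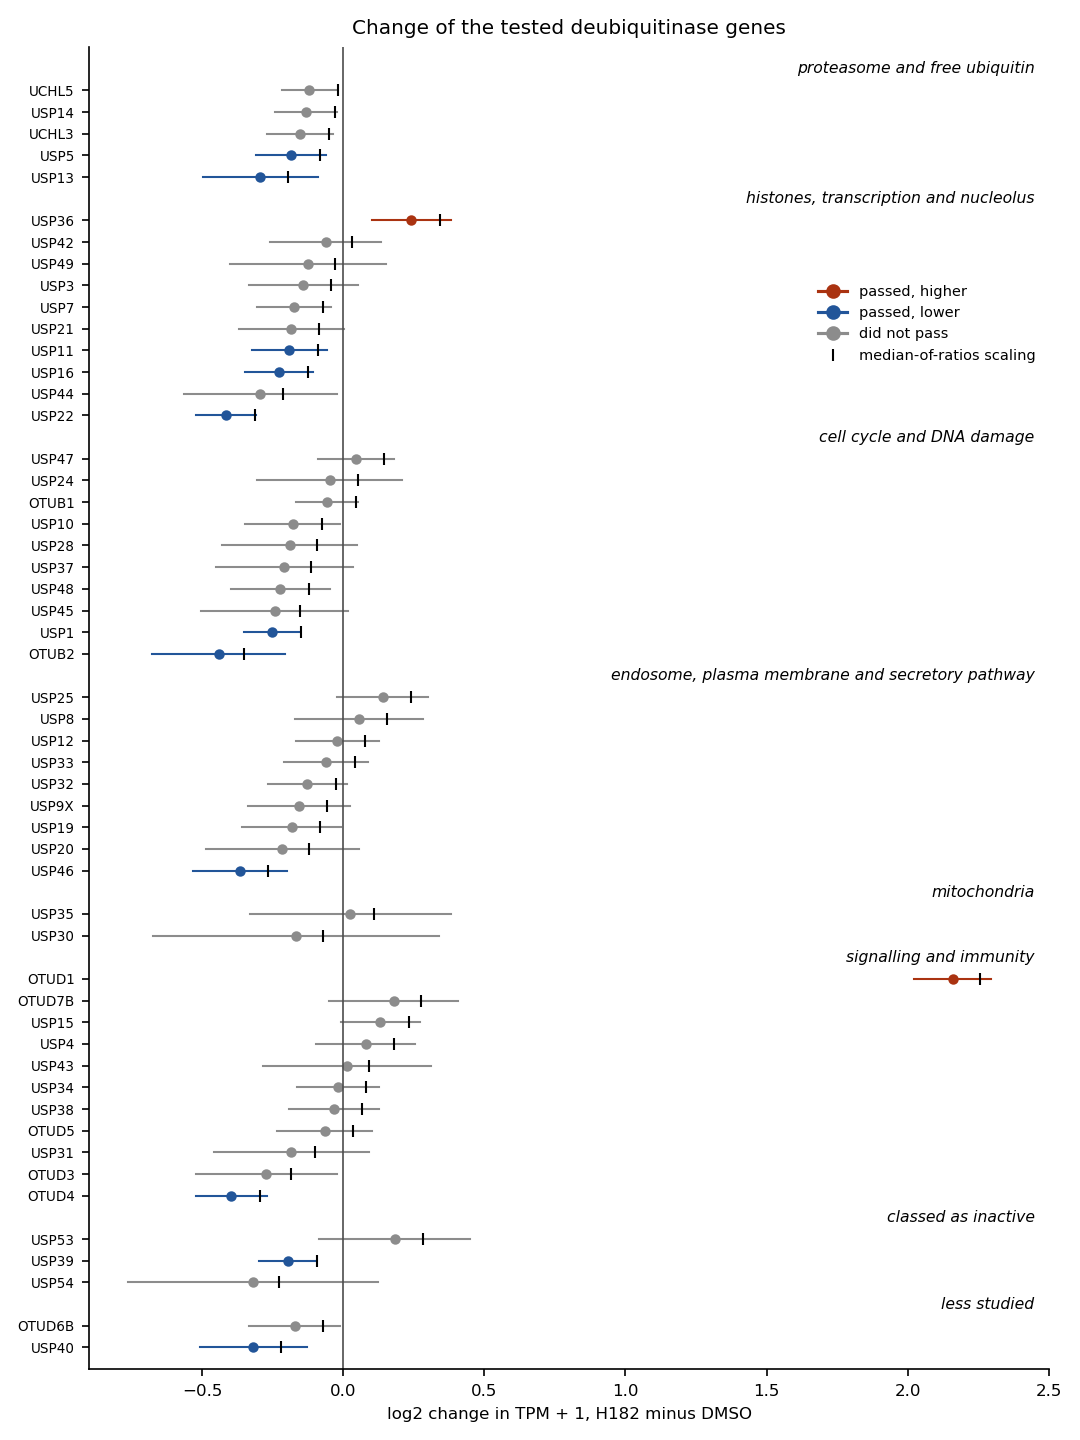
Log2 change of TPM + 1, H182 minus DMSO (horizontal axis), with 95% intervals as lines, for the 52 tested members grouped by role. Black ticks give the change with median-of-ratios scaling, and OTUD1 stands at 2.16 while the other 51 genes lie between -0.44 and 0.24 in TPM.

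Close relatives were compared within each library, where a ratio of 2 genes does not depend on the scaling of the library apart from the pseudocount. Of 22 pairs listed, 14 had both genes among those tested. In 7 of the 14 the log2 ratio did not overlap between the groups. Single tested genes did not overlap in 41.4% in TPM, a share that carries the shift of the whole table. No such share was computed for ratios of other gene pairs. With 3 libraries a group, the smallest p of the two-sided exact permutation test is 0.1, which these 7 pairs reached (0.2 after Benjamini-Hochberg adjustment over 14 pairs), so no pair passed a threshold of 0.05.

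The OTUB1 to OTUB2 ratio was at 3.34, 3.35 and 3.25 in DMSO and 3.74, 3.71 and 3.64 in H182 on the log2 scale, a difference of 0.38. USP12 and USP46 are close paralogs that share WDR48 as a cofactor. Their log2 ratio was at 0.51, 0.58 and 0.56 in DMSO and 0.90, 0.79 and 0.98 in H182, a difference of 0.34, as USP46 fell and USP12 did not pass. The USP11 to USP15 ratio was at 0.23, 0.22 and 0.14 in DMSO and -0.13, -0.13 and -0.11 in H182, so that USP11 exceeded USP15 in every DMSO library and lay below it in every H182 library. USP4 to USP11 differed by 0.27 and USP36 to USP42 by 0.30, both without overlap. USP5 to USP13 (0.11) and USP16 to USP45 (0.02) overlapped between groups. The USP5 to USP13 difference was 0.013 without H182 replicate 2, 0.070 without DMSO replicate 1 and 0.21 without H182 replicate 3. Among pairs in which neither gene passed, USP25 to USP28 (0.33) and USP31 to USP43 (-0.20) did not overlap.

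**Figure D4:**
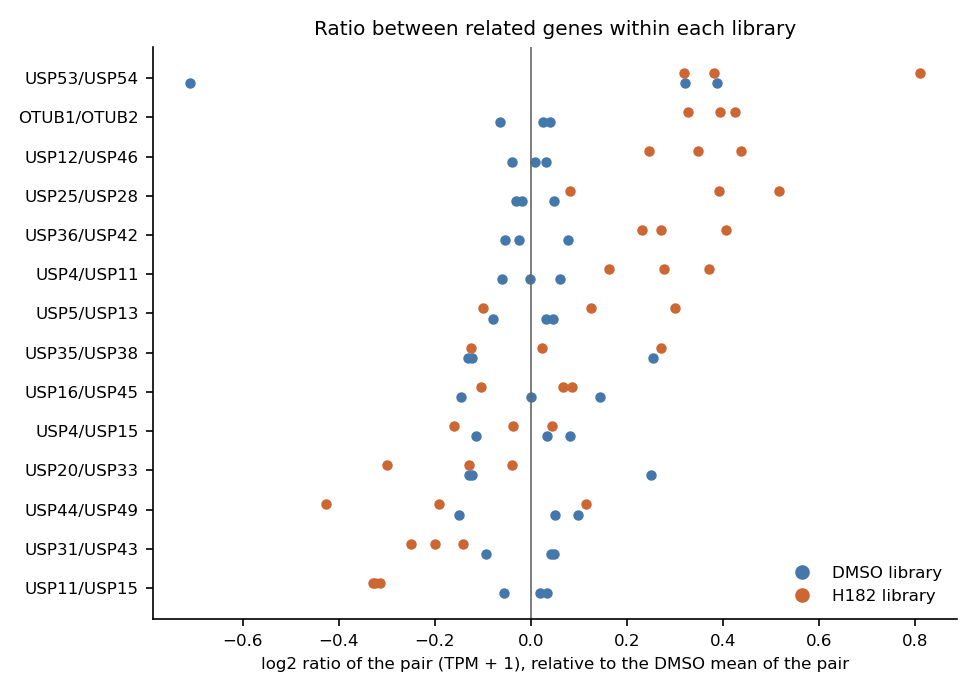
Log2 ratio (TPM + 1) of 14 pairs of related genes in each library, relative to the DMSO mean of the pair (horizontal axis), with 1 point per library. The H182 libraries lie to the right for OTUB1 to OTUB2, USP12 to USP46, USP25 to USP28, USP36 to USP42 and USP4 to USP11, and to the left for USP11 to USP15 and USP31 to USP43.

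The levels of the 64 genes spanned the range from 0 to over 100 TPM. A mean above 100 TPM was found for 5 genes, USP22 (151), USP14 (138), USP1 (125), UCHL3 (124) and USP39 (109). In DMSO the libraries of USP1 (136 ± 4.0 TPM) and UCHL3 (131 ± 4.67 TPM) overlapped in level. A further 37 genes had means of 10 to 100 TPM and 10 had means of 1 to 10 TPM. The median of the tested members was 25.6 TPM, near that of all tested genes at 22.8 TPM. The filter at 1 TPM fell in a gap, with USP43 at 2.95 TPM just above it and USP27X at 0.968 TPM just below. The 12 genes below it were USP27X, USP18, USP6, USP50, USP41, USP2, USP51, UCHL1, OTUD6A, OTUD7A, USP29 and USP26. USP26 was listed at 0 in every library, and 10 of the 64 genes were below 1 TPM in all 6 libraries.

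**Figure D5:**
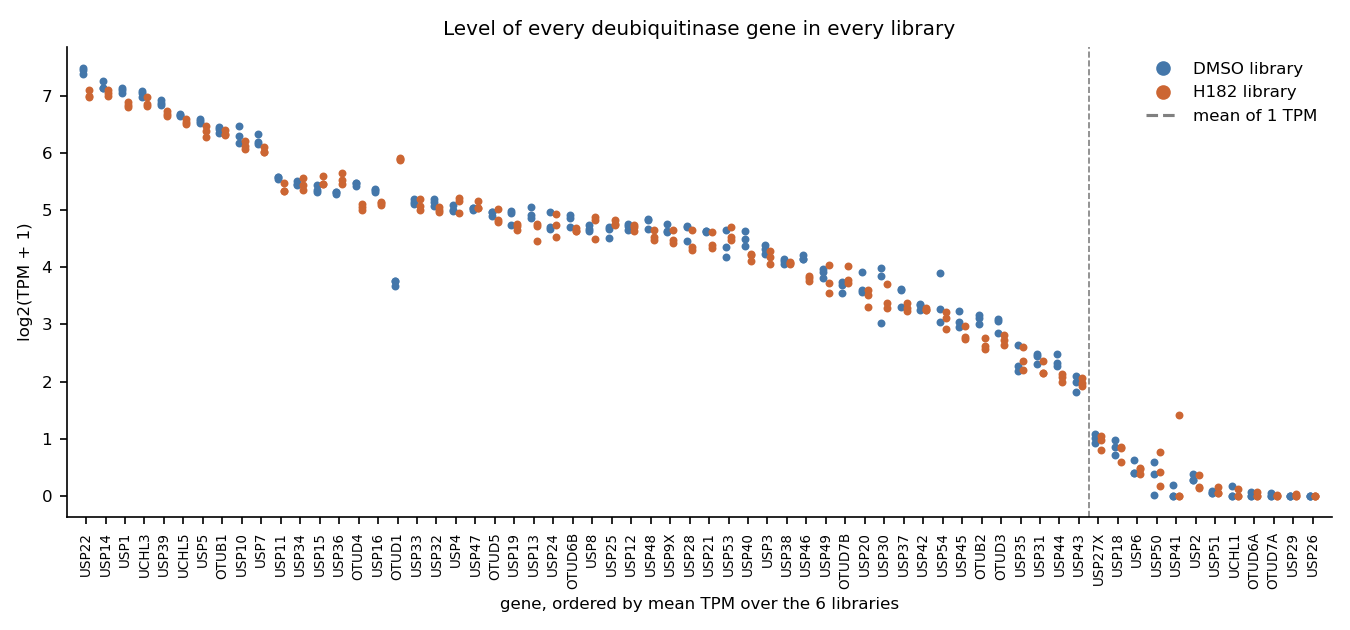
Level of all 64 genes as log2(TPM + 1) (vertical axis) in each DMSO and H182 library, ordered by mean TPM, with a dashed line at a mean of 1 TPM. OTUD1 is the gene whose groups stand furthest apart, at 11.8 to 12.6 TPM in DMSO and 57.8 to 59.3 TPM in H182.

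In gene structure, OTUD1 was the only tested member with 1 exon (longest coding transcript in GENCODE 29), while the 52 genes had a median of 17 exons. The other single-exon members, OTUD6A and USP27X, lay below 1 TPM. Of 263 single-exon genes among 11743 tested coding genes, 48 rose (18.3%) and 83 fell, with a median log2 change of -0.16. Over all tested genes 5.30% were higher and 18.7% lower, with a median of -0.09. The part of exon number in the rise of OTUD1 was not tested. Over the 52 tested members, the log2 change was only weakly related to gene span (Spearman's rho 0.18), mean level (0.10), transcript length (0.10), exon number (0.03) and GC content (-0.07). Over all 11743 coding genes these values were -0.05, -0.07, -0.12, -0.05 and 0.02. They are descriptions across genes measured in the same 6 libraries, and genes are not independent replicates. In GENCODE 29 the OTUD1 gene begins 383 bases downstream of the RefSeq start site, and no other gene overlaps its exons. In all, 9 tested members share exon bases with a gene on the opposite strand that is itself among the tested genes.

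Of the other deubiquitinase families and relatives outside the naming rule (25 genes listed, 24 tested), 3 rose and 2 fell. These were 12.5% and 8.33% of the tested list, beside 5.30% and 18.7% of all tested genes. TNFAIP3, the NF-kappaB inhibitor A20 and an OTU enzyme, rose 1.86-fold, from 3.24 ± 0.434 to 6.03 ± 0.805 TPM (limma adjusted p = 0.00436). USPL1, a SUMO protease with a USP-like fold, rose 1.46-fold from 6.21 ± 0.165 TPM, and YOD1, an OTU partner of the VCP segregase, rose 1.21-fold from 12.7 ± 0.786 TPM. BRCC3 and BAP1 fell to 0.845 and 0.851 of their DMSO means, and neither call held with median-of-ratios scaling. With that scaling 4 of the list were higher and none lower, against 7.88% and 6.78% of all tested genes. The median change of the list was -0.02 in TPM, beside -0.09 for all tested genes. PSMD14, the metalloprotease of the proteasome, changed by -0.05 and CYLD by -0.03 on the log2 scale, neither passing.

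Of 13 cofactors of deubiquitinases, none rose and 3 fell (23.1%) in TPM, where 5.30% and 18.7% of all tested genes did. With median-of-ratios scaling none rose and 1 fell, against 7.88% and 6.78% of all tested genes. The list median in TPM was -0.02. G3BP1, the partner of USP10, fell from 226 ± 3.43 to 191 ± 6.64 TPM (log2 change -0.24, limma adjusted p = 0.00266) and also passed with median-of-ratios scaling. UBE2N, which OTUB1 binds, and ATXN7L3, the SAGA subunit that activates USP22, fell by 0.18 and 0.19 on the log2 scale in TPM. Neither passed with median-of-ratios scaling. With quantile normalization UBE2N passed (limma adjusted p = 0.0188) and ATXN7L3 did not (0.214). WDR48, the cofactor of USP1, USP12 and USP46, changed by 0.10 and did not pass.

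A list of 16 well-known protein substrates of these enzymes showed 6 rises and 7 falls in mRNA, with a median of -0.03, where 5.30% of all tested genes were higher and 18.7% lower. After median-of-ratios scaling 6 were higher and 3 lower, against 7.88% and 6.78% of all tested genes. Several of its genes were already known to change in these data. ID1, ID2 and ID3, inhibitors of basic helix-loop-helix factors whose proteins USP1 stabilises, rose 3.27-fold, 15.5-fold and 3.6-fold, from 91.7 ± 7.25, 2.39 ± 0.835 and 45.3 ± 2.36 TPM. MYC, a target of USP28 and USP36, rose 2.27-fold from 256 ± 3.70 TPM. The cyclins CCND1 and CCNA2 fell, from 537 ± 14.9 to 346 ± 8.07 TPM and from 149 ± 0.686 to 105 ± 4.24 TPM, under both scalings. CLSPN, FANCD2 and EGFR fell in TPM, and none of these 3 passed with median-of-ratios scaling. With quantile normalization CLSPN passed (limma adjusted p = 0.0323), and FANCD2 and EGFR did not. MDM2, a ubiquitin ligase that USP7 stabilises, changed by -0.03 and did not pass. These values are of mRNA, and no protein or ubiquitination was measured.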

How the data were processed

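RNA was measured in 3 DMSO and 3 H182 libraries of MDA-MB-231 cells, made with a stranded poly-A kit per the labels' protocols. The authors deposited TPM for each gene in each library, with 2 decimals. The submitters' processing notes name STAR 2.5.0, RSEM 1.2.25 and GRCh38. The annotation and strand setting are not given in the sources used here, and TPM keep no record of read depth, so depth is unknown and no counting interval was given.

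Of 27567 rows, 92 spike-in rows (all at 0) and 24 duplicate X/Y rows were left out. Values were analysed as log2(TPM + 1) for genes whose mean TPM reached 1, with limma 3.58.1 in R 4.3.3 (mean-variance trend, two-sided, Benjamini-Hochberg over 12294 genes, threshold 0.05). The log2(TPM + 1) scale understates changes of low genes, and folds in the text are ratios of mean TPM. Intervals are 95% limma intervals and errors are SDs unless called SE. All 64 members matched GENCODE 29 by gene identifier, 59 with the same version. The fit was tested on simulated data. Simulated log2 changes of 0.25, 0.5, 1 and 2 passed in 17.2%, 60%, 89.6% and 98.8% of cases, so small changes were often missed there. The simulation changed far fewer genes than passed here, so its shares need not hold for these data.

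The members, lists, roles, pairs and motifs were chosen with earlier results of these data known. Full values were given for passing members (up to 12 in each direction by size), the 5 most abundant members, members changed at least 2-fold, pairs with a passing member and up to 4 passing genes with the lowest p of each list. Other genes were named after their values were seen. Alternatives covered scaling, pseudocount, filter, variance model, library weights, a replicate block and leaving out each library. Figures were drawn with matplotlib 3.10.9. Single values of some genes of the lists are not reported here.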

Additional observations from a re-analysis of the deposited data

How the results depend on the processing

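The rise of OTUD1 and the falls of USP22, OTUD4, USP46 and USP1 passed under all 16 alternatives. The number of members that fell was 11 in TPM, 5 with median-of-ratios scaling, 5 with quantile normalization and 7 without a filter, and 5 to 11 on leaving out each library in turn (5 without DMSO replicate 2 and 6 without H182 replicate 2). It was 15 with library weights, under which USP14 and UCHL3 passed, and 13 when the filter was raised to 5 TPM. The number of members that rose was 1 or 2 on leaving out each library. Over all genes of the same fits, 2586 fell with library weights, 2397 with the filter at 5 TPM and 1721 without a filter. Of all tested genes 2304 fell in TPM, 833 with median-of-ratios scaling, 1261 with quantile normalization and 1396 to 2205 on leaving out each library. With these scalings 969 and 833 genes rose, against 651 in TPM, and 528 to 587 on leaving out each library. The difference in the USP16 to USP45 ratio, 0.02, changed sign without DMSO replicate 3 (-0.057), H182 replicate 2 (-0.018) or H182 replicate 3 (-0.0095), and ranged from -0.057 to 0.089 on leaving out each library. The cause of these changes was not tested. Replicate numbers in the labels are shared between the groups but did not pair the libraries: deviations of same-numbered libraries correlated at -0.01, 0.00 and -0.04, and 0 of 6 libraries correlated best with their own number. With a replicate block 2 members rose and 12 fell, where 625 and 2059 of all tested genes did. That fit lost USP11 (adjusted p = 0.0567) and added UCHL3 (adjusted p = 0.0478) and USP10 (0.0477). Pseudocounts of 0.1 and 0.5 and robust moderation changed no call among the 15 genes tracked. Unknown depth limits what can be said of the 12 genes below 1 TPM.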
